A study of Homo sapiens with 36 samples.

Results

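VAV3, RAB7B, RASL11A and FAM13C are 4 protein-coding genes linked by name or family to small GTPases, and they were chosen from 60675 genes in the count table because they were among the strongest falls in SW1783 cells given the high dose of ACD. The choice therefore rested on the high dose and on the vehicle libraries it was compared with. Fold changes against that vehicle are given below as descriptions, without a test. RNA sequencing had been performed on 36 libraries in 12 groups of 3 replicates to ask in which of 2 cell lines, one from brain and one from intestine, ACD acted more strongly. ACD here is a hot water extract of the monkshood Aconitum carmichaeli Debeaux. The sample titles call it a water extract of Aconiti Lateralis Radix Preparata.

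SW1783 is a human astrocytoma cell line and HT29 is a human colorectal adenocarcinoma cell line, and each contributed 18 libraries in 6 groups. In batch A of each line, cells received vehicle or wortmannin at 10 µM, an inhibitor of phosphoinositide 3-kinase (PI3K) that served as positive control. In batch B, cells received vehicle or ACD at a low (20 µg/mL), medium (100 µg/mL) or high (500 µg/mL) dose. All cells were harvested after 24 h. The vehicle contained DMSO (0.1% per the labels), carried no extract and was shared by all ACD groups of a line. Batch is the word used in the sample titles, and what differed between batches was not described there. Nothing in the descriptions stated that replicates were separate cultures, so p-values measure the spread between these libraries, which may be technical. Both are cancer cell lines in culture, without the other cell types of brain or gut.

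Total counts per library were 18863863 to 26436867 in SW1783 and 15941255 to 33866644 in HT29. A level is given as CPM, the count divided by the library's total count and multiplied by 1000000, and 3 counts, the limit that a count of 0 allows, corresponded to 0.0886 to 0.188 CPM. This limit covers counting error only. Vimentin (VIM), a mesenchymal marker, ranged from 4076 to 4975 CPM in SW1783 and reached at most 0.133 CPM in HT29, and the epithelial marker EPCAM ranged from 452 to 585 CPM in HT29 and reached at most 0.202 CPM in SW1783. The astrocyte genes GFAP, S100B, AQP4 and ALDH1L1 reached at most 0.261, 0.253, 0.041 and 0.087 CPM in SW1783, at or near 0, whereas the astrocyte glutamate transporter SLC1A3 ranged from 5.58 to 50.1 CPM in SW1783 and reached at most 0.042 CPM in HT29. In HT29, ALDH1L1 ranged from 5.73 to 10.8 CPM, and GFAP, S100B and AQP4 reached at most 0.416, 0.0 and 0.042 CPM. The share of counts from mitochondrial ribosomal RNA moved with the dose in SW1783. The vehicle libraries of batch B had 0.932% ± 0.025 (SD, n = 3) and the high dose libraries 5.93% ± 0.15, with 3.15% ± 0.164 for low and 7.83% ± 0.199 for medium. Its part in the results was not tested.

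Small GTPases are molecular switches that are active when bound to GTP. Guanine nucleotide exchange factors (GEFs) load them with GTP, and GTPase-activating proteins (GAPs) end the active state by speeding up hydrolysis. Rac GTPases organise the actin cytoskeleton, Rab GTPases direct vesicles between membrane compartments, and Ras-like GTPases relay signals from receptors. In glial tumour cells these switches are known for their roles in migration and membrane traffic. The members hold different places in this scheme. VAV3 is not itself a GTPase but a GEF whose targets include Rac proteins, activated by tyrosine phosphorylation downstream of receptors and sensitive to the lipid products of PI3K. RAB7B is a Rab GTPase of late endosomes and the trans-Golgi network. RASL11A is an atypical Ras-like GTPase connected with transcription of ribosomal DNA by RNA polymerase I. FAM13C belongs to the FAM13 family, and its own biochemical role is little described.

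In the GENCODE v44 annotation on GRCh38, VAV3 (ENSG00000134215) occupies chr1:107571161-107965180 on the minus strand. RAB7B (ENSG00000276600) occupies chr1:205976740-206003461 on the minus strand, RASL11A (ENSG00000122035) chr13:27270830-27275192 on the plus strand and FAM13C (ENSG00000148541) chr10:59246130-59363181 on the minus strand. The only annotated overlaps were with genes of the opposite strand. MIR7852 and VAV3-AS1, which overlap VAV3, were listed at 0 in all 36 libraries, and PHYHIPL, which overlaps one end of FAM13C, had at most 7.71 counts in a library. Of the other antisense genes at FAM13C, ENSG00000236556 was listed at 0 in all libraries and ENSG00000287969 was not analysed here. The libraries were directional, but the strand setting of the counting was not stated, so reads of a gene and of an antisense partner may not have been told apart.

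The members share a fall at the high dose because they were chosen by it. The stretches just upstream of their start sites are shown for the 3 members with a RefSeq window outside the annotated gene. The VAV3 window in the table used lay inside the gene and was not printed, nor were 1 further window of RAB7B and 2 of FAM13C that lay inside the gene. The FAM13C sequence belongs to a start site 632 bases from the start of the canonical transcript, and the RAB7B sequence covers only the 184 bases from 67 to 250 upstream of its start site. Each sequence runs 5′ to 3′ on the strand of the gene (RefSeq, GRCh38.p14), and capitals mark a match to a searched motif. The RAB7B window was chr1:206003462-206003645 (minus strand), the RASL11A window chr13:27270580-27270829 (plus strand) and the FAM13C window chr10:59363182-59363431 (minus strand).
RAB7B: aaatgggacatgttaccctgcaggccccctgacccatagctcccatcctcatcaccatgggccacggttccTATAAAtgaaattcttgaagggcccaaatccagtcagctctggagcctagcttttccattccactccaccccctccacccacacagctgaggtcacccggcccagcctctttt
RASL11A: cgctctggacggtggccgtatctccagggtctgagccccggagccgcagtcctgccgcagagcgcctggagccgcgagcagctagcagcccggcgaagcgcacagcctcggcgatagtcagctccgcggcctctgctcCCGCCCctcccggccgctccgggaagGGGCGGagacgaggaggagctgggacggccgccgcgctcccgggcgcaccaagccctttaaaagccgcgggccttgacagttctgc
FAM13C: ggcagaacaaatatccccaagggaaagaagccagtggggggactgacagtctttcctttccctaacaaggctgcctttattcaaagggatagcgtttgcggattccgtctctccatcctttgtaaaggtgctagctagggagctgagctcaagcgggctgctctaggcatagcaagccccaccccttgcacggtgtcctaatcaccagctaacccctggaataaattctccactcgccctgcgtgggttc

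The motifs searched on both strands were TGANTCA (the AP-1 site), TGACGTCA (the cAMP response element), TGATGNAA (the composite site of C/EBP and ATF factors), CACGTG (the E-box), GGGCGG (the GC box), CCAAT (the site of NF-Y), TATAAA (the TATA box) and GTAAACA (the forkhead site), and no motif is contained in another. RAB7B held TATAAA at 179 bases upstream of the RefSeq start site, a match that 7.29% of the 34943 windows held within the same 184 bases. RASL11A held the GC box GGGCGG at 86 bases and, on the other strand, at 112 bases upstream, a match that 42.55% of the windows of 250 bases held. FAM13C held none of the motifs. The GC content was 72.8% in RASL11A, 55.4% in RAB7B and 53.6% in FAM13C, with a median over all windows of 58.0%, or 57.1% within the 184 bases taken for RAB7B. No motif was found in all 3 windows, and a match in these letters is a description of the sequence only.

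The level of VAV3 in SW1783 was lower at each higher dose. In the 3 vehicle libraries of batch B it was at 20.0, 20.1 and 17.3 CPM, at the low dose at 14.9, 14.3 and 15.5 CPM, at the medium dose at 6.04, 5.30 and 5.33 CPM, and at the high dose at 1.48, 1.32 and 1.19 CPM. No dose group overlapped its neighbour, and the order ran from vehicle through low and medium to high. The mean level at the high dose was 6.95% of the vehicle mean, with 28, 32 and 28 counts behind the 3 values. The log2 fold change against vehicle was -3.74 ± 0.19 (SE) at the high dose, -1.68 ± 0.13 at medium and -0.32 ± 0.12 at low, the first being a 13.4-fold lower level. In these bulk libraries, fewer cells that express a gene and less RNA per cell cannot be told apart.

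RAB7B was also lower at each higher dose. Its vehicle libraries were at 33.6, 32.7 and 31.9 CPM, its low dose libraries at 29.0, 23.3 and 27.6 CPM, its medium dose libraries at 16.01, 13.2 and 12.1 CPM, and its high dose libraries at 3.22, 2.98 and 2.72 CPM. Again no dose group overlapped its neighbour, although the low dose libraries spread more widely than the vehicle libraries. The log2 fold change against vehicle was -3.35 ± 0.14 at the high dose, where the mean level was 9.09% of vehicle, -1.14 ± 0.11 at medium and -0.26 ± 0.11 at low.

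RASL11A did not separate from vehicle at the low dose. The vehicle libraries were at 8.39, 11.2 and 10.4 CPM, the low dose libraries at 9.14, 9.16 and 8.40 CPM, the medium dose libraries at 4.72, 4.41 and 4.81 CPM, and the high dose libraries at 1.16, 1.03 and 1.15 CPM. Vehicle and low dose overlapped, whereas the medium dose lay below both and the high dose below all others. The log2 fold change against vehicle was -0.13 ± 0.15, -0.99 ± 0.16 and -3.05 ± 0.22 at the low, medium and high dose.

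FAM13C had the same shape from a low dose that was no lower than vehicle. Its vehicle libraries were at 7.74, 9.05 and 7.64 CPM, its low dose libraries at 8.14, 9.01 and 9.59 CPM, its medium dose libraries at 3.78, 4.11 and 4.30 CPM, and its high dose libraries at 1.16, 0.676 and 0.724 CPM. The low dose overlapped vehicle, the medium dose lay below both, and the high dose rested on 16.37 to 22 expected counts per library. The log2 fold change against vehicle was 0.16 ± 0.16, -0.89 ± 0.17 and -3.18 ± 0.24 at the low, medium and high dose.

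**Figure D1:**
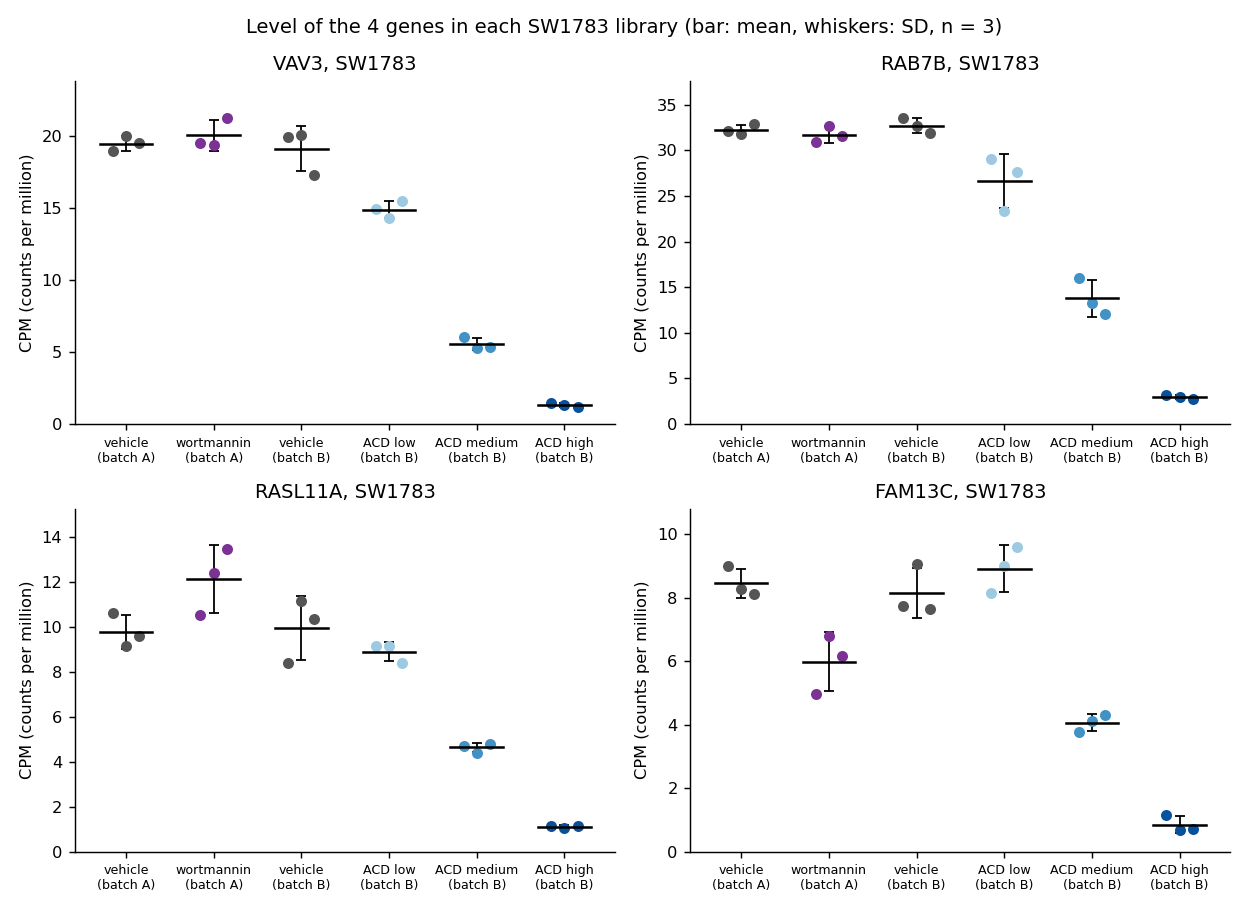
Level in CPM (y axis, from 0) of VAV3, RAB7B, RASL11A and FAM13C in every SW1783 library by group (x axis); points are libraries, bars the mean and whiskers the SD of 3 replicates. All 4 genes were lowest at the high dose, with VAV3 at 1.19 to 1.48 CPM against 17.3 to 20.1 CPM in vehicle of batch B, and VAV3 and RAB7B stayed near vehicle in wortmannin.

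The members' values at the high dose chose them and are not evidence about them. In SW1783, 17.7% of the 20050 genes tested at the high dose were differentially expressed genes (DEGs), that is, genes with a DESeq2 adjusted p-value under 0.05 and a change of more than 1.5-fold, and 9.28% were downregulated. At the medium dose 3.81% and at the low dose 0.103% were DEGs. Among 1051 downregulated genes with a mean normalised count of 100 or more and groups that did not overlap, the members were at positions 1 (VAV3), 2 (RAB7B), 4 (FAM13C) and 5 (RASL11A) in the order of the falls. Position 3 was held by CCN4, a secreted matricellular protein, with -3.28 ± 0.20 on the log2 scale. Just below the members stood the growth factor TGFB3 at -2.97 ± 0.15 and TCAF2 at -2.92 ± 0.19, so the members had no gap to the genes next in order.

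The size of the step between doses differed along the series, as estimated from the fit of the 12 libraries. From vehicle to the low dose the members moved by -0.32 to 0.16 on the log2 scale, from low to medium by -1.36 to -0.87 and from medium to high by -2.29 to -2.06. The last step was the largest for every member. It includes the high dose libraries by which the members were chosen, so its size is a description only. VAV3 had the largest step of the 4 from low to medium and FAM13C the largest from medium to high. Differences between members in these steps were not tested.

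The comparison of the medium with the low dose in SW1783 used 6 libraries outside the high dose and vehicle groups by which the members were chosen. Earlier results of these data were known when the choice was made, which limits this separation. All 4 members were downregulated DEGs from the low to the medium dose, against 0.483% of the 13467 genes tested that were downregulated DEGs. VAV3 fell by 1.35 ± 0.14 on the log2 scale (DESeq2 adjusted p = 2.57e-19), which is 2.55-fold. FAM13C fell by 1.05 ± 0.18 (adjusted p = 7.64e-08), RAB7B by 0.88 ± 0.12 (adjusted p = 6.78e-12) and RASL11A by 0.86 ± 0.17 (adjusted p = 7.68e-06). For each member all 3 medium dose libraries were below all 3 low dose libraries. The 95% intervals were -1.63 to -1.07 for VAV3, -1.40 to -0.71 for FAM13C, -1.12 to -0.65 for RAB7B and -1.20 to -0.53 for RASL11A, and they overlapped between VAV3 and each of the others. These p-values came from the fit without a block on replicate number. The members kept their calls under that block, with TMM or total count scaling, in edgeR and without any single library.

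VAV3 and RAB7B did not pass the test with wortmannin in SW1783. VAV3 was at 19.0, 20.0 and 19.5 CPM in batch A vehicle and at 19.5, 19.4 and 21.3 CPM with wortmannin, and RAB7B was at 32.1, 31.8 and 32.9 CPM and at 30.9, 32.7 and 31.6 CPM. The groups overlapped for both genes. No member was a DEG (0 of 4, by DESeq2 and by edgeR, with 2 of 4 at an unadjusted p under 0.05), against 2.71% of the genes tested. The log2 fold change was 0.02 ± 0.09 for VAV3 (95% interval -0.16 to 0.20, DESeq2 adjusted p = 0.911) and -0.05 ± 0.07 for RAB7B (-0.19 to 0.09, adjusted p = 0.665), so that changes of 1.5-fold lay outside both intervals.

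FAM13C and RASL11A differed from this under wortmannin. FAM13C was at 8.98, 8.27 and 8.12 CPM in vehicle and at 4.97, 6.81 and 6.18 CPM with wortmannin, without overlap. Its log2 fold change was -0.53 ± 0.16 with an adjusted p of 0.00409, and it missed the fold threshold of 0.585. By the adjusted p alone 1 of 4 members and 32.5% of the genes tested passed. Without wortmannin replicate 2 it was -0.63 and FAM13C was a DEG. RASL11A was at 10.6, 9.13 and 9.61 CPM in vehicle and at 10.5, 12.4 and 13.5 CPM with wortmannin, with overlapping groups, and its log2 fold change of 0.29 ± 0.13 did not pass the test (adjusted p = 0.0801).

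The vehicle groups of both batches held the members at like levels in SW1783. Their log2 fold change, batch A against batch B, lay between -0.03 and 0.05 for all 4 genes (SE 0.07 to 0.15, adjusted p = 1.00 for each). Vehicle libraries of the same replicate number in the 2 batches were closer than libraries of different number, with a chi-square per degree of freedom over genes of 1.51 to 1.61 against 1.96 to 2.95, so batch A vehicle may not be a separate set of cultures. In HT29 these values were 1.44 to 1.51 against 3.74 to 16.1, and the same limit applies there. Against batch A vehicle the high dose values in SW1783 were -3.77 for VAV3, -3.33 for RAB7B, -3.23 for FAM13C and -3.02 for RASL11A.

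HT29 cells did not express the members alike. FAM13C had 0 counts in all 18 HT29 libraries, and VAV3 had 0 to 6 counts per library, 30 counts in all. Vehicle levels in SW1783 were therefore at least 43.3-fold higher for FAM13C and at least 102-fold higher for VAV3 than 3 counts in the shallowest HT29 library. No fold change under treatment is given for these genes in HT29. RAB7B was 2.09-fold higher in SW1783 vehicle than in HT29 vehicle of batch B (32.7 ± 0.848 against 15.6 ± 0.373 CPM; SD, n = 3), and RASL11A was 2.92-fold higher in HT29 vehicle (29.2 ± 2.03 against 9.97 ± 1.42 CPM).

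RASL11A was downregulated at the high dose in HT29 as well. The vehicle libraries of batch B were at 29.7, 30.9 and 26.9 CPM, the low dose at 23.3, 27.2 and 31.9 CPM, the medium dose at 18.7, 19.7 and 20.9 CPM and the high dose at 14.9, 18.8 and 16.2 CPM. Medium and high dose lay below vehicle and low dose and overlapped each other. The high dose value was -0.67 ± 0.14 on the log2 scale (adjusted p = 4.49e-05), and 1 of the 2 members with an adjusted p was a DEG, against 3.1% of the 15300 genes tested, 1.75% being downregulated. The high dose library of replicate 2 had the lowest total count of the series, and without it the value was -0.79 (adjusted p = 4.78e-09). At the medium dose the change was -0.55 ± 0.14 (adjusted p = 0.00441) and from low to medium -0.45 ± 0.11 (adjusted p = 0.00469), both below the fold threshold. By the adjusted p alone 1 of 2 members passed in each, against 1.99% of genes at the medium dose and 0.999% from low to medium. The share of mitochondrial ribosomal RNA in HT29 was 11.96% ± 0.634 at the high dose against 1.18% ± 0.04 in vehicle, with 1.09% ± 0.09 for low and 2.10% ± 0.122 for medium, and its part in this result was not tested.

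RAB7B did not pass the test at any dose of ACD in HT29. It was at 15.2, 15.7 and 15.9 CPM in vehicle, at 16.5, 15.4 and 17.2 CPM at the low dose, at 19.4, 17.7 and 19.2 CPM at the medium dose and at 15.1, 16.8 and 16.3 CPM at the high dose. The medium dose libraries lay above vehicle without overlap, and the other doses overlapped vehicle. None of these changes passed the test, with 0.18 ± 0.10 at the high (95% interval -0.01 to 0.37, adjusted p = 0.311), 0.27 ± 0.10 at the medium (adjusted p = 0.152) and 0.05 ± 0.10 at the low dose (adjusted p = 0.979). With both measured members counted, 0 of 2 were DEGs at the medium dose (0.793% of genes tested; 0 of 2 by edgeR, 2 of 2 at an unadjusted p under 0.05) and 0 of 2 at the low dose (0.288%; 0 of 2 by edgeR, 0 of 2 at an unadjusted p under 0.05). From low to medium, 0 of 2 were DEGs (0.182%; 0 of 2 by edgeR, 2 of 2 at an unadjusted p under 0.05), and RAB7B moved by 0.22 ± 0.10 (adjusted p = 0.843).

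Wortmannin left the members of HT29 without a DEG. RAB7B was at 16.1, 16.6 and 14.8 CPM in batch A vehicle and at 19.5, 18.8 and 18.9 CPM with wortmannin, and RASL11A was at 32.7, 29.0 and 26.9 CPM and at 28.1, 27.5 and 26.9 CPM. The RAB7B libraries did not overlap and the RASL11A libraries did. RAB7B changed by 0.21 ± 0.11 on the log2 scale (adjusted p = 0.172) and RASL11A by -0.16 ± 0.11 (adjusted p = 0.322), so 0 of 2 were DEGs by DESeq2 and by edgeR (2.74% of genes tested), with 0 of 2 at an unadjusted p under 0.05.

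**Figure D2:**
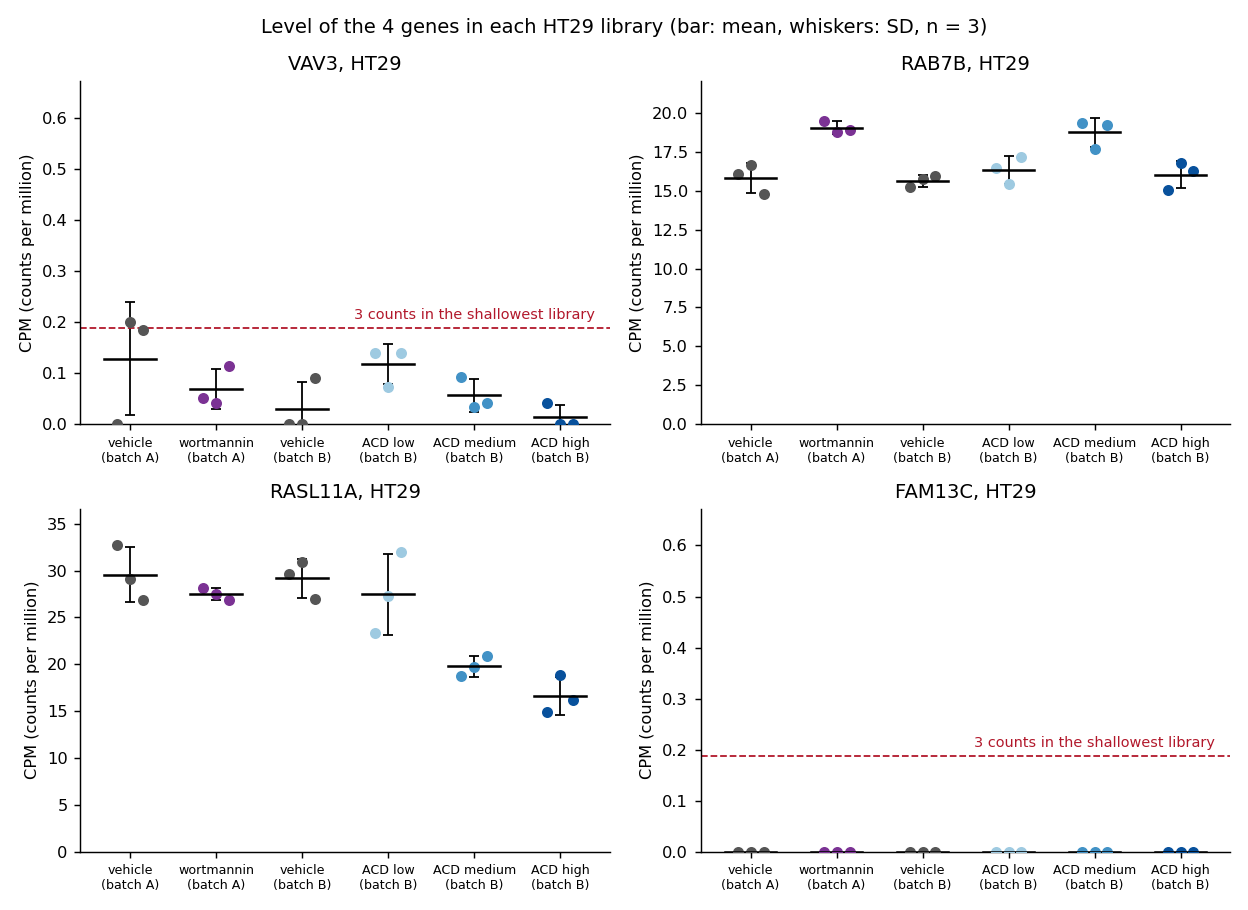
Level in CPM (y axis, from 0) of the same 4 genes in every HT29 library by group (x axis); points are libraries, bars the mean, whiskers the SD of 3 replicates, and the dashed line in the VAV3 and FAM13C panels 3 counts in the shallowest library. RASL11A was at 14.9 to 18.8 CPM at the high dose against 26.9 to 30.9 CPM in vehicle of batch B, RAB7B was between 14.8 and 19.5 CPM throughout, and FAM13C was at 0.

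The difference between the cell lines was tested directly on the 12 libraries of the medium and low doses. For RAB7B the change from low to medium was lower in SW1783 than in HT29 by -1.10 ± 0.16 on the log2 scale (95% interval -1.41 to -0.79, adjusted p = 6.81e-10), and all 3 medium dose libraries lay below the low dose in SW1783 and above it in HT29. For RASL11A the difference was -0.42 ± 0.18 and did not pass the test (95% interval -0.77 to -0.06, adjusted p = 0.150). Thus 1 of the 2 members measured in both lines passed, against 1.48% of the 10913 genes tested. For wortmannin the difference between lines was -0.28 ± 0.10 for RAB7B (adjusted p = 0.0451, below the fold threshold) and 0.42 ± 0.16 for RASL11A (adjusted p = 0.0512). By the adjusted p alone 15.6% of genes passed. No member passed both thresholds there, by DESeq2 or by edgeR, with 2 at an unadjusted p under 0.05, against 3.42% of genes tested.

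**Figure D3:**
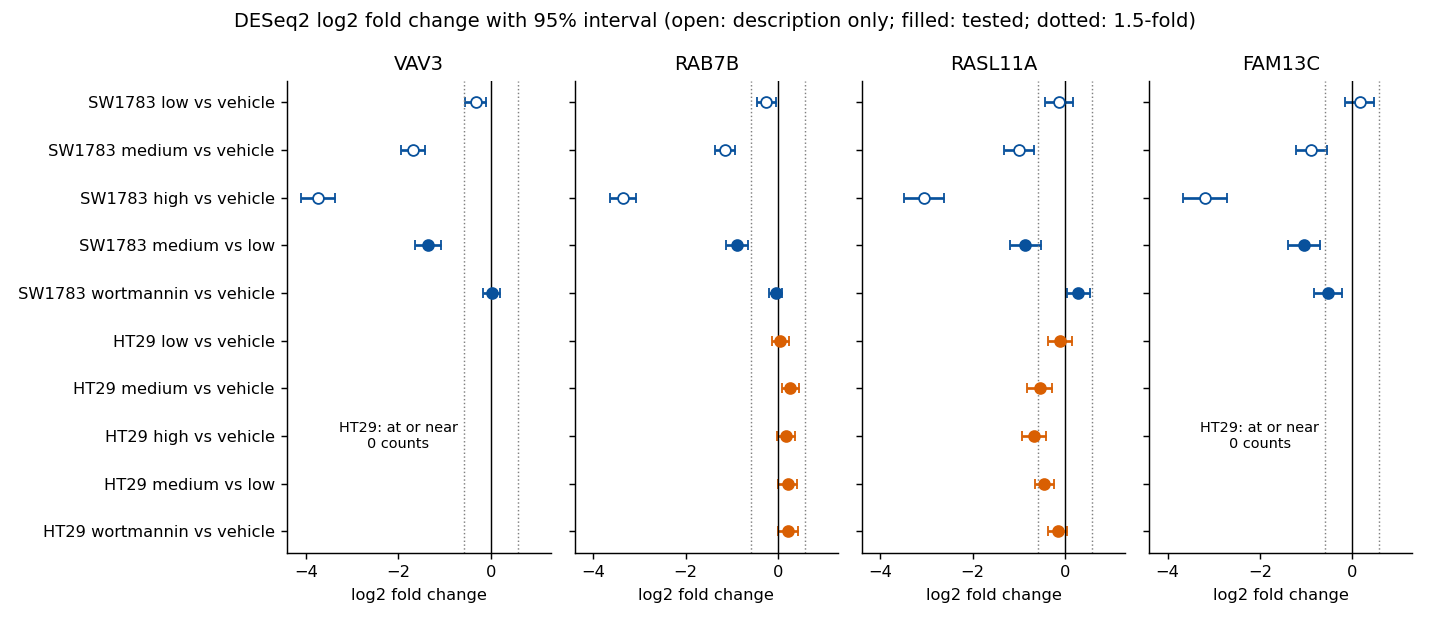
DESeq2 log2 fold change (x axis) of each gene in each comparison (rows), with 95% intervals as whiskers; open symbols are descriptions without a test, filled symbols were tested, blue is SW1783, orange is HT29, and dotted lines mark 1.5-fold. In SW1783 every ACD value except those of the low dose lies left of the 1.5-fold line, from -0.86 for RASL11A at medium against low to -3.74 for VAV3 at the high dose, whereas RAB7B in HT29 lies between 0.05 and 0.27.

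The likeness of the members in pattern over the 18 SW1783 libraries is a description, because the high dose and vehicle libraries by which they were chosen are among them and largely set the values. Pearson's r of the log2 normalised counts was 0.991 between VAV3 and RAB7B, 0.987 between RAB7B and RASL11A and 0.985 between VAV3 and RASL11A, whereas FAM13C reached 0.948 to 0.963 with the others. RAB7B held position 7 among 11378 genes in likeness to VAV3, so other genes were closer. Among the 3 closest to VAV3 were the semaphorin SEMA5A (r = 0.995) and the cell cycle inhibitor CDKN2C (0.995). Closest to RAB7B were the Frizzled ligand NDP (0.997), the sodium pump subunit ATP1B1 (0.995) and the corepressor TLE4 (0.994). Among the 3 closest to RASL11A were the planar polarity gene PRICKLE2 (0.994) and the protocadherin PCDHGC3 (0.992), and FAM13C was closest to the oxygen sensor EGLN1 (0.994), the glycosyltransferase GALNT2 (0.991) and the kinetochore gene SKA2 (0.989). The points share the same libraries and dose series, and the same holds for the order of likeness.

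Among the nearest relatives of the members, FAM13B was a DEG at the high dose in SW1783 and those described before it were not. At the high dose in SW1783, VAV2 was at 66.8 ± 2.09 CPM in vehicle and 65.6 ± 1.59 CPM with ACD, a log2 fold change of 0.09 ± 0.05 (adjusted p = 0.146), and VAV1 had 0 counts in both groups. RAB7A, the general late endosomal Rab, was at 129 ± 0.872 and 149 ± 2.30 CPM, with 0.32 ± 0.04 (adjusted p = 1.43e-18) and below the fold threshold. RASL11B was at 0.177 CPM in vehicle and 0.046 CPM at the high dose, at or near 3 counts. FAM13A was at 8.96 ± 0.438 and 5.97 ± 0.225 CPM, with -0.47 ± 0.14 (adjusted p = 0.0024), below the fold threshold. FAM13B was at 78.7 ± 1.50 and 34.6 ± 1.71 CPM, with -1.07 ± 0.06 (adjusted p = 6.16e-80).

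Genes beside the members on the chromosome moved in different ways at the high dose. NTNG1, next to VAV3, was downregulated (-0.99 ± 0.17, adjusted p = 5.21e-08) while SLC25A24 on the other side was at 0.04 ± 0.05. BICC1, next to FAM13C, was downregulated (-0.87 ± 0.05, adjusted p = 2.06e-59), and SLC16A9 on its other side rose from 0.692 ± 0.515 to 1.64 ± 0.186 CPM (1.34 ± 0.47, adjusted p = 0.0112). The neighbours of RASL11A, RPL21 and GTF3A, were at 0.12 ± 0.04 and 0.01 ± 0.05, and those of RAB7B, SLC26A9 and CTSE, were near 0 counts. Distances to these neighbours were 5074 to 414695 bases.

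Wider lists around the members held genes moving both ways. Besides GTPases and their GEFs and GAPs, they covered late endosome machinery, receptors and effectors, PI3K signalling and RNA polymerase I transcription. Of 321 tested genes on 9 lists, the 4 members excluded, 37 were upregulated and 37 downregulated DEGs at the high dose in SW1783, which is 23.1% against the 17.7% of all genes. The median log2 fold change of these genes was 0.07 against -0.01 for all genes. By the adjusted p alone 220 of the 321 passed, against 45% of all genes, which is 9016 of 20050. The background of all genes included genes of low count. After a filter against low counts, 9377 of 16122 genes passed by the adjusted p alone and 3602 were DEGs. The filtered fit had 75 DEGs on the lists. The part of expression level in the list shares was not tested, a limit on every list share set against all genes. With total counts as scaling, 42.3% of the DEGs on the lists were upregulated in place of an even split. At the medium dose 9 were upregulated and 5 downregulated of 295 (4.7% against 3.81%).

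Rab GTPases, the class of RAB7B, had 6 DEGs in each direction of 55 (21.8%, against 17.7% of all genes, median 0.10). RAB39B, a Rab expressed in neurons, rose from 2.40 ± 0.473 to 28.9 ± 1.17 CPM (3.69 ± 0.15), and RAB32 (0.88 ± 0.07) and RAB33B (0.82 ± 0.11), which acts in autophagy and Golgi traffic, rose less. RAB30 (-1.36 ± 0.10), RAB15 (-0.75 ± 0.08) and RAB9B (-0.71 ± 0.15) fell. The list drawn up for late endosome and Rab7 machinery had 6 upregulated and 0 downregulated DEGs of 36 (16.7%). The 17.7% of all genes covers both directions, with 1687 upregulated and 1860 downregulated DEGs among the 20050 genes tested. The list median was 0.29 against -0.01 for all genes. Among the DEGs of this list RILPL1 (0.99 ± 0.10), whose link to Rab7 was not examined, the Rab7 effector PLEKHM1 (0.97 ± 0.06) and the Rab7 GAP TBC1D15 (0.96 ± 0.07) rose.

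Ras-like GTPases, the class of RASL11A, had 4 upregulated and 1 downregulated DEG of 29 (17.2%, against 17.7% of all genes, median 0.08). DIRAS1 (1.62 ± 0.16), RALA (0.82 ± 0.05) and RHEB (0.74 ± 0.04), an activator of the mTORC1 kinase complex, rose, as did RHEBL1 (1.45), named after its value was seen, and the tumour suppressor DIRAS3 fell (-0.67 ± 0.07). In the list of RNA polymerase I transcription 1 of 16 was a DEG (6.2%, against 17.7%), the promoter factor subunit TAF1A at 1.14 ± 0.14.

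Receptors and effectors around VAV3 had 3 upregulated and 4 downregulated DEGs of 42 (16.7%, against 17.7% of all genes, median 0.03). The platelet-derived growth factor receptors PDGFRA (29.0 ± 1.27 to 10.2 ± 1.35 CPM, -1.40 ± 0.10) and PDGFRB (-1.15 ± 0.06) and the actin kinase LIMK2 (-0.80 ± 0.09) fell, and the actin regulator WASF2 rose (0.65 ± 0.03). PI3K subunits, phosphatases and AKT had 1 upregulated and 3 downregulated DEGs of 20 (20.0%, against 17.7%, median 0.07). The regulatory subunits PIK3R3 (-1.10 ± 0.10) and PIK3R1 (-1.04 ± 0.06) fell, as did PIK3C2B (-1.51), named after its value was seen, and RICTOR, a component of mTORC2, rose (0.65 ± 0.05).

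**Figure D4:**
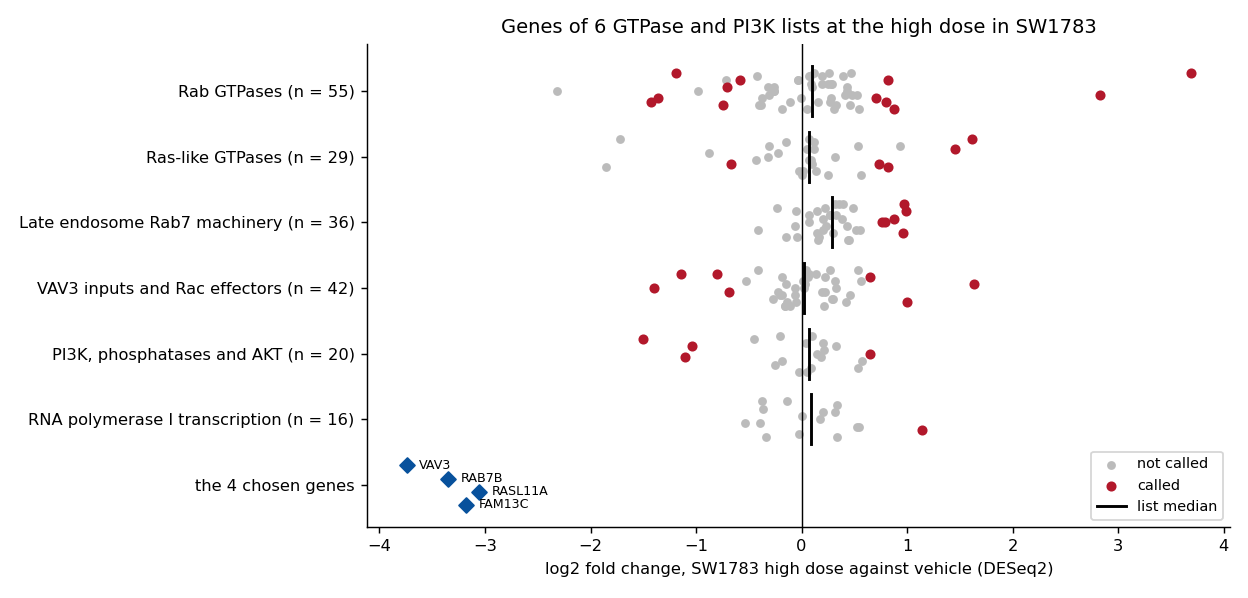
DESeq2 log2 fold change at the high dose against vehicle in SW1783 (x axis) for every tested gene of 6 of the lists (rows; n is the number tested); red points are DEGs, grey points are not, black bars are list medians, and blue diamonds are VAV3, RAB7B, RASL11A and FAM13C. Points lie on both sides of 0 in most lists, the 6 DEGs of the late endosome list are all on the right side, and the chosen genes lie between -3.74 and -3.05.

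From the low to the medium dose in SW1783, where all 4 members fell, 4 of 288 list genes were upregulated and 1 downregulated (1.7%, against 1.68% of all genes). RND3 (1.32 ± 0.05), RAB39B (1.56 ± 0.18), DLC1 (0.71 ± 0.05) and ARHGEF2 (0.69 ± 0.07) rose and FAM13B (-0.59 ± 0.06) fell just past the threshold. With wortmannin in SW1783, 2 of 297 rose and 2 fell (1.3% against 2.71%). These 4 were chosen after their values were seen, apart from DIRAS3 and PDGFRA. DIRAS3 (-0.60 ± 0.07) and RRAD (-0.78 ± 0.12) fell, and PDGFRA (0.60 ± 0.07) and RAB3A (0.61 ± 0.23) rose. PDGFRA thus moved up with wortmannin and down with the high dose of ACD, a difference between treatments that was not tested.

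At the high dose in HT29, 2 of 289 list genes were upregulated and 0 downregulated (0.7%, against 3.1% of all genes), and these were the GEF FGD2 (2.14 ± 0.55) and RHOF (0.76 ± 0.11), both named after their values were seen. With wortmannin 4 of 272 were upregulated and 0 downregulated (1.5% against 2.74%), namely ARHGAP4 (1.26 ± 0.40), MRAS (0.66 ± 0.22), the insulin receptor INSR (0.70 ± 0.10) and PLCG2 (0.92 ± 0.27), likewise named after their values were seen.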

How the data were processed

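Directional mRNA libraries were sequenced as paired-end reads. Per the labels, the authors used FastQC 0.11.9, Trim Galore 0.6.5, STAR 2.7.3a and RSEM 1.3.3 with GRCh38. The strand setting was not stated. The deposited table holds the authors' RSEM expected counts, not normalized. Values were rounded to whole numbers (8.84% were not whole). DESeq2 1.42.0 in R 4.3.3 was run with its Wald test, two-sided, and Benjamini-Hochberg adjustment over all genes. DEGs passed an adjusted p of 0.05 and a log2 change of 0.585 in size. Each fit held the 6 or 12 libraries named with it, and line differences were interaction terms. Alternatives were edgeR 4.0.16, other size factors, a filter of 10 counts in 3 libraries, a replicate block, omission of single libraries and the other vehicle. The scripts were tested on simulated data.

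Same-numbered SW1783 medium and low dose libraries deviated together (r = 0.12 to 0.192 for the 3 pairs), which was taken as pairing. The p-values printed for this comparison and for its line difference came from fits without pairing, and the replicate block was an alternative. Over the alternatives, run with DESeq2 or edgeR, the largest adjusted p of a member in this comparison was 0.00535 (RASL11A). For the line difference of RAB7B it was 1.45e-07. The members and lists were chosen with earlier results of these data known. Genes were named by rule: the members, the 3 genes below them in the order of falls, the 3 closest in pattern, paralogues, neighbours, and up to 3 DEGs per list and direction with a mean count of 100 or more and the largest changes. The separate results of 3 lists and some genes that these rules name are not reported here. Levels are mean ± SD, fold changes ± SE.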

Additional observations from a re-analysis of the deposited data

Results flagged for a closer look

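RAB7B differed between the cell lines in the change from the low to the medium dose, by -1.1 on the log2 scale (SW1783 minus HT29), in the interaction test of DESeq2 (adjusted p = 6.81e-10). It was lower at the medium dose in 3 of 3 SW1783 libraries and higher in 3 of 3 HT29 libraries. For wortmannin the difference for RAB7B was -0.28 (adjusted p = 0.0451), a size below the fold threshold, and over the alternatives its adjusted p ranged from 0.0201 to 0.461. All groups had 3 samples, so single samples were not tested for standing apart.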

How the results depend on the processing

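The 4 members stayed downregulated DEGs from the low to the medium dose in SW1783 under every alternative run (VAV3 -1.43 to -1.32, RAB7B -0.998 to -0.79, RASL11A -0.94 to -0.83, FAM13C -1.13 to -1.003 on the log2 scale), and RASL11A at the high dose in HT29 likewise (-0.82 to -0.59). No called value changed sign, whereas VAV3 with wortmannin in SW1783, called in no fit, ran from -0.026 to 0.043 and was below 0 without wortmannin replicate 3. Without the fold threshold, 1 member was called in place of 0 for wortmannin in SW1783 (FAM13C), for the medium dose and for medium against low in HT29 (RASL11A) and for the line difference of wortmannin (RAB7B), and 220 list genes in place of 74 were called at the high dose in SW1783. Leaving out single libraries gave 0 to 1 calls for wortmannin in SW1783 (1 without wortmannin replicate 2, FAM13C -0.63) and 0 to 1 for the medium dose in HT29 (1 without vehicle replicate 3 or medium dose replicate 3, RASL11A -0.61 and -0.59). The block on replicate number changed no call of a member, with 4 of 4 called for medium against low in SW1783. The numbers did not pair medium and low in HT29 (r = -0.084 to 0.021) or vehicle and wortmannin in SW1783 and HT29 (0.03 to 0.067 and -0.052 to 0.138). For vehicle and high dose in HT29, r was -0.474 to 0.356 for same numbers and -0.499 to 0.531 for different numbers. The line difference of medium against low includes the SW1783 libraries that were taken as paired. The alternatives for medium against low in HT29 and batch A vehicle for the lists were added after seeing the data. At the high dose in SW1783, FAM13C and RASL11A rested on under 30 counts per library and VAV3 on 28 to 32, which limits the precision of all of these.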
